A study of Mus musculus with 6 samples.

Results

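The genes described here are the 10 members of the DNA methylation and Polycomb repressive complex 2 (PRC2) machinery Dnmt1, Dnmt3a, Dnmt3b, Uhrf1, Tet1, Tet2, Tet3, Ezh1, Ezh2 and Suz12. They were chosen by gene symbol, and all 10 were found among the 16729 genes of the deposited expression table and passed the filter on low counts. Bulk RNA-seq was performed on intracranial tumors of mG7080, a gliomasphere line that came from tumors of a mouse model of glioblastoma. The tumors grew in female C57BL/6 hosts that were either wild-type (WT) or knockout for Esm1 (Esm1 KO), the gene of the secreted endothelial proteoglycan Endocan. There were 3 libraries per group, each from a resected tumor, and the labels name them WT 1 to WT 3 and KO 1 to KO 3. The deletion was carried by the host, so the injected cells of both groups were the same and carried Esm1, and each library mixed RNA of tumor cells with RNA of host brain, vessels and immune cells. The study's methods and its reporting summary give different age ranges in weeks for the hosts, both of young adults.

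DNA methylation is a mark on cytosines of CpG dinucleotides that is copied at each cell division. Uhrf1 recognises newly replicated, hemimethylated DNA and brings in the maintenance methyltransferase Dnmt1, whereas Dnmt3a and Dnmt3b place the mark on unmethylated DNA and the Tet oxidases start its removal. PRC2 methylates lysine 27 of histone H3 and thereby keeps developmental genes silent, with Ezh2 as the catalytic subunit of dividing cells, Ezh1 as the one that prevails in resting cells, and Suz12 as a core scaffold. In brain and glioma, Ezh2, Uhrf1 and Dnmt1 are known for high levels in proliferating progenitors, and Dnmt3a and Ezh1 for expression in postmitotic neurons.

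The libraries held 17632070 to 22241832 reads on genes, so that 1 read was worth 0.0445 to 0.057 CPM (reads scaled to the size of the library with edgeR's TMM factors). Esm1, on chromosome 13 of GRCm38 from 113209659 to 113218098, had 25, 21 and 82 reads in WT 1, WT 2 and WT 3, and 1, 24 and 4 reads in KO 1, KO 2 and KO 3. Scaled to library size, Esm1 was at 1.19, 1.09 and 4.05 CPM in WT 1 to WT 3 and at 0.057, 1.07 and 0.208 CPM in KO 1 to KO 3. KO 2 was thus below every WT library, yet within 1 read of the scaled level of WT 2, which puts its label in doubt and does not settle it because the tumor cells carry the gene. The study's own table of RNA-seq results has columns for WT 1, WT 2, KO 1 and KO 3 only. All comparisons were therefore made over the 6 libraries as labelled, over the 5 without KO 2, and over these 4, with the doubt about KO 2 known when the sets were chosen. Cell type markers also set KO 1 and KO 3 apart. The summed level of 10 genes of dividing cells was 118.4 and 29.3 CPM in KO 1 and KO 3, against 1153 to 2053 CPM in the WT libraries and 1282 CPM in KO 2. The sum of 12 neuronal genes was 13580 and 16710 CPM in KO 1 and KO 3, against 2010 to 6089 CPM in WT and 5204 CPM in KO 2. In bulk RNA, fewer cells of a type and less RNA per cell cannot be told apart, and the part of this shift in the results on single genes was not tested.

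Over all 6 libraries, edgeR's quasi-likelihood test called 0 of the 10 genes at an adjusted p under 0.05, and the share of all 16166 genes tested that was called was 0.0% in the lower and 0.0% in the higher direction. Among the 10 genes, 8 had lower and 2 higher estimates in the KO libraries, and 2 of them (Dnmt3b and Suz12) had an unadjusted p under 0.05, as did 1923 lower and 2462 higher genes of all. The exact test of edgeR and limma-voom called 0 of the 10 as well, and DESeq2 called 0 of those other than Uhrf1, to which it gave no adjusted p (log2 fold change -1.89). Over all genes DESeq2 called 425 lower and 757 higher, the exact test 39 and 66, and limma-voom 0 and 0. Without KO 2, 6 genes fell (Uhrf1, Dnmt1, Dnmt3b, Ezh2, Suz12 and Tet3) and Ezh1 rose, beside 28.3% of all tested genes called lower and 24.5% called higher. Over WT 1, WT 2, KO 1 and KO 3, 5 genes fell (Uhrf1, Dnmt1, Dnmt3b, Ezh2 and Suz12) and 0 rose, beside 13.9% and 2.87% of all genes. The median log2 fold change of the 10 genes was -0.54, -0.77 and -0.72 over the 6, 5 and 4 libraries, and that of all genes was -0.02, -0.02 and -0.03. In CPM, every KO library lay below every WT library for 2 of the 10 genes (Dnmt1 and Dnmt3b) and above it for 1 (Dnmt3a). Across all genes this was the case for 14.6% and 13.2%.

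**Figure D1:**
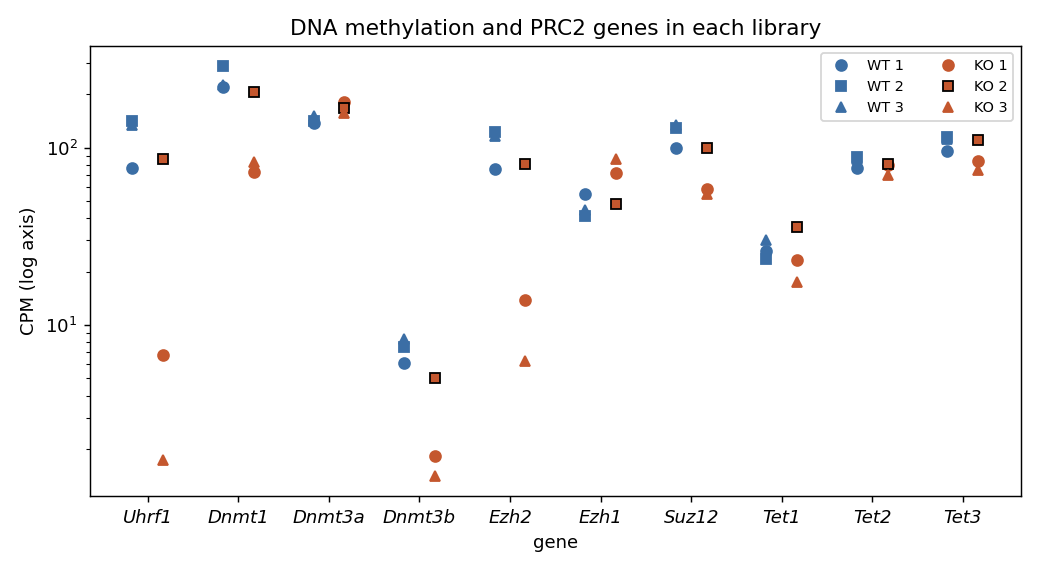
CPM of each gene (log axis) in the 3 WT libraries (blue) and 3 KO libraries (red), with the marker shape giving the library number and KO 2 outlined in black. Uhrf1 and Ezh2 spread farthest, from 1.72 to 141.8 CPM and from 6.3 to 122.9 CPM, with KO 1 and KO 3 at the bottom and KO 2 among the WT libraries.

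The start regions of all 10 genes were searched for a short sequence that E2F transcription factors, which act on many genes at the onset of S phase, can bind. RefSeq promoter windows of 300 bases (250 before and 50 from the transcription start, build GRCm38.p6) were searched on both strands for the words TTTCCCGC, TTTCGCGC, TTTGCCGC and TTTGGCGC. All 10 genes had a window, and 4 of them (Uhrf1, Dnmt1, Ezh2 and Suz12) held a match. Of the 12311 genes of the count table with a window, 515 (4.18%) held one, as did 2.26% of all 32851 windows. The stretches around the matches are shown 5′ to 3′ on the strand of the gene, with the matching word in capitals.
Uhrf1, chr17:56304088-56304175 (+): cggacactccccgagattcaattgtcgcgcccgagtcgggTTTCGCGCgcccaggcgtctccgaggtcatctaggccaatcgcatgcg
Dnmt1, chr9:20952795-20952873 (-): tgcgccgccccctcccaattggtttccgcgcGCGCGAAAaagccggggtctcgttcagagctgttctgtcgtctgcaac
Suz12, chr11:79992856-79992934 (+): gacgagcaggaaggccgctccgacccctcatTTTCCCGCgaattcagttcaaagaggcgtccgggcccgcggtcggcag
Ezh2, chr6:47595009-47595038 (-): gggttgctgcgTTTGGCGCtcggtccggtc
With the start base counted as 1 and the base before it as -1, the words began at -185 in Uhrf1, -219 in Dnmt1, -219 in Suz12 and 4 in Ezh2, the last within the transcribed part. The word in Dnmt1 is read on the opposite strand, and Dnmt1 held another match at 34. The window of Dnmt3b, which also fell over the 4 libraries, held none of these words, nor did that of Tet3, which fell without KO 2. Those of Dnmt3a, Ezh1, Tet1 and Tet2 held none either. The window with the most CpG of each gene held between 17 (Tet1) and 57 (Tet2), whereas other windows of Dnmt1 and Uhrf1 held 2 to 12. Over all windows, without choosing the highest of a gene, the median was 7 and the 75th percentile 20. Each of the words searched contains a CpG, and all 10 genes had a window with more CpG than the median. The shares of the 10 genes and of all genes with a match are therefore not like for like. These are matches of letters and do not show binding, and a part of E2F factors in the values of the 10 genes was not tested.

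Uhrf1, which guides Dnmt1 to replicated DNA, had the lowest values relative to WT. It lies on chromosome 17 from 56303321 to 56323486 (plus strand). Its level was, in library order, 76.7, 141.8 and 134.3 CPM in WT 1 to WT 3, compared with 6.79, 86.7 and 1.72 CPM in KO 1 to KO 3. Far below every WT library were KO 1 and KO 3, at 5.77% and 1.46% of the WT mean, while KO 2 lay inside the WT range, so the groups overlapped. The group means were 117.6 ± 35.6 CPM in WT and 31.7 ± 47.7 CPM in KO (SD, n = 3 each), and the log2 fold change over 6 libraries was -1.91 (standard error, SE, 1.29, adjusted p = 0.303, edgeR). Over WT 1, WT 2, KO 1 and KO 3 the mean was 25.7-fold lower in KO, at -4.70 on the log2 scale (SE 0.73, adjusted p = 0.0343, edgeR). Without KO 2 it was -4.79 (SE 0.66, adjusted p = 0.008, edgeR). Uhrf2, the close relative of Uhrf1, stayed between 57.6 and 66 CPM in the 6 libraries, and its log2 fold change over 4 libraries was -0.15.

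Dnmt1, the maintenance methyltransferase on chromosome 9 (20907209 to 20959888, minus strand), had 219.6, 288 and 227 CPM in WT 1 to WT 3, compared with 73.4, 205.7 and 83.2 CPM in KO 1 to KO 3. All 3 KO libraries were below all 3 WT libraries, KO 2 by a small margin at 84% of the WT mean, and KO 1 and KO 3 at 30% and 34%. The group means were 244.9 ± 37.6 and 120.8 ± 73.7 CPM (SD, n = 3 each), or -1.04 as a log2 fold change (SE 0.43, adjusted p = 0.184, edgeR). Over the 4 libraries Dnmt1 was 3.24-fold lower in KO, at -1.71 on the log2 scale (SE 0.24, adjusted p = 0.0343, edgeR). The 4-library call was lost without KO 1 (adjusted p = 0.106, edgeR) or without KO 3 (adjusted p = 0.136, edgeR), fits in which the remaining KO library is assumed to vary like the WT libraries.

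Both de novo methyltransferases were measured, and in CPM their values lay on opposite sides of the WT level. Dnmt3b, the form prominent in early embryonic cells (chromosome 2, 153649450 to 153687730, plus strand), had the fewest reads of the 10 genes. It had 128, 145 and 169 reads in the WT libraries and 32, 113 and 27 reads in KO 1, KO 2 and KO 3. These correspond to 6.09, 7.49 and 8.34 CPM in WT and to 1.83, 5.03 and 1.41 CPM in KO. Every KO library was below every WT library, with KO 1 and KO 3 at 25% and 19.2% of the WT mean and KO 2 at 68.8%. The log2 fold change was -1.42 over 6 libraries (SE 0.52, unadjusted p = 0.0332, adjusted p = 0.184, edgeR) and -2.08 over 4 (SE 0.36, adjusted p = 0.0345, edgeR). Without KO 1 or KO 3, the 4-library call was lost (adjusted p = 0.0845 and 0.172, edgeR).

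Dnmt3a, the form abundant in postmitotic neurons (chromosome 12, 3806007 to 3914443, plus strand), had 137.9, 142.4 and 152 CPM in WT 1 to WT 3, compared with 180.9, 167.5 and 156.2 CPM in KO 1 to KO 3. In CPM the KO libraries all lay above the WT libraries, KO 3 only just, and the means were 144.1 ± 7.21 and 168.2 ± 12.3 CPM (SD, n = 3 each). The difference was small and did not pass the test in any set of libraries, with log2 fold changes of 0.21 (SE 0.13, adjusted p = 0.29) over 6 and 0.26 (SE 0.20, adjusted p = 0.348) over 4 libraries in edgeR. The separation of the groups depended on the scaling. In the deposited FPKM, which do not use TMM factors, Dnmt3a was at 14.5, 16.1 and 16.7 in WT. It was at 16.9, 18.2 and 13.9 FPKM in KO 1 to KO 3, with KO 3 the lowest of the 6 libraries.

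Ezh2, the PRC2 methyltransferase of dividing cells (chromosome 6, 47530139 to 47595341, minus strand), had 76.1, 122.9 and 117.1 CPM in WT 1 to WT 3, compared with 13.9, 81.4 and 6.3 CPM in KO 1 to KO 3. KO 1 and KO 3 held 13.2% and 5.98% of the WT mean, and KO 2, at 77.2%, was slightly above WT 1, so the groups overlapped. The means were 105.4 ± 25.5 CPM in WT and 33.9 ± 41.4 CPM in KO (SD, n = 3 each), or -1.66 as a log2 fold change (SE 0.92, adjusted p = 0.236, edgeR). Over the 4 libraries Ezh2 was 9.87-fold lower in KO, at -3.32 on the log2 scale (SE 0.48, adjusted p = 0.0343, edgeR). Uhrf1 and Ezh2 were the genes of the 10 that still passed with KO 1 or KO 3 left out of the 4: Uhrf1 was then at -5.98 and -4.00, and Ezh2 at -3.98 and -2.84.

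Ezh1, the alternative catalytic subunit (chromosome 11, 101191115 to 101226463, minus strand), had 54.9, 41.4 and 44.8 CPM in WT 1 to WT 3, compared with 72.2, 48.4 and 86.1 CPM in KO 1 to KO 3. KO 1 and KO 3 were above every WT library, at 153.4% and 182.9% of the WT mean, and KO 2 was within the WT range at 102.8%. The log2 fold change was 0.54 over 6 libraries (SE 0.24, adjusted p = 0.19, edgeR), 0.71 over 4 (SE 0.21, adjusted p = 0.0698, edgeR) and 0.75 without KO 2 (SE 0.17, adjusted p = 0.0176, edgeR). Over the 4 libraries DESeq2 and edgeR's exact test called it higher, whereas the quasi-likelihood test and limma-voom did not.

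Suz12, the scaffold that both catalytic subunits need (chromosome 11, 79993106 to 80034123, plus strand), had 99.2, 128.8 and 134.2 CPM in WT 1 to WT 3, compared with 58.7, 99.9 and 54.7 CPM in KO 1 to KO 3. At 48.6% and 45.3% of the WT mean, KO 1 and KO 3 were well below WT, and KO 2 lay just above WT 1. The log2 fold change was -0.78 over 6 libraries (SE 0.28, unadjusted p = 0.0291, adjusted p = 0.184, edgeR) and -1.02 over 4 (SE 0.21, adjusted p = 0.0407, edgeR), a 2.01-fold lower mean. Without KO 1 or KO 3 the 4-library call was lost (adjusted p = 0.148 and 0.225, edgeR).

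Without KO 2 the log2 fold changes of the called genes of both pathways were -1.64 for Dnmt1 (SE 0.19), -2.17 for Dnmt3b (SE 0.30), -3.38 for Ezh2 (SE 0.42) and -1.09 for Suz12 (SE 0.18), with adjusted p of 0.00798, 0.00798, 0.00798 and 0.00973 in edgeR. Each of the 4 estimates lay farther from 0 than over all 6 libraries. This follows from leaving out KO 2, the KO library nearest to the WT mean for each of these genes, and is not separate evidence.

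The Tet oxidases convert 5-methylcytosine to hydroxymethylcytosine, and none of them was called over 6 or over 4 libraries. Tet1 (chromosome 10, 62804570 to 62908996, minus strand) had 26.2, 23.6 and 30 CPM in WT 1 to WT 3, compared with 23.3, 35.7 and 17.5 CPM in KO 1 to KO 3. KO 2 was the highest and KO 3 the lowest of the 6 libraries, and the log2 fold change was -0.08 over 6 (SE 0.28, adjusted p = 0.843, edgeR), with a sign that changed when WT 3 or KO 3 was left out (0.04 and 0.13). Tet2 (chromosome 3, 133463679 to 133545139, minus strand) had 77, 88.3 and 86.8 CPM in WT and 80.3, 81 and 70 CPM in KO, and its log2 fold change over 6 libraries was -0.14 (SE 0.13, adjusted p = 0.428, edgeR). Its groups overlapped, and only KO 3 lay below all WT libraries. Tet3 (chromosome 6, 83362373 to 83459084, minus strand) had 96.3, 115.8 and 112.8 CPM in WT and 84, 110.4 and 74.7 CPM in KO. KO 1 and KO 3 were below the WT libraries and KO 2 among them, and the log2 fold change was -0.29 over 6 (SE 0.19, adjusted p = 0.287), -0.43 over 4 (SE 0.19, adjusted p = 0.141) and -0.44 without KO 2 (SE 0.14, adjusted p = 0.0448) in edgeR.

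**Figure D2:**
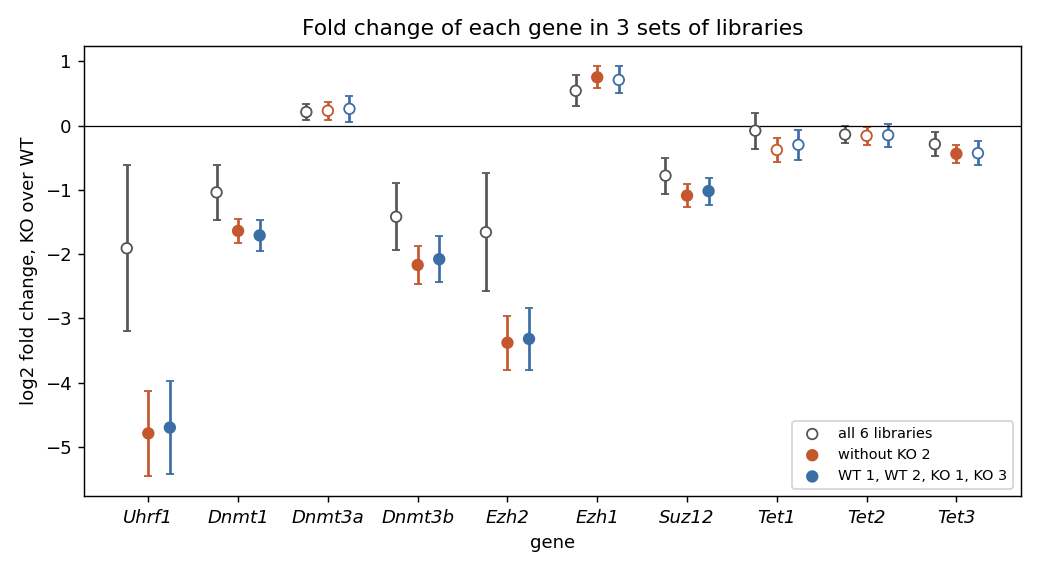
Log2 fold change (KO over WT) of each gene with its standard error in edgeR, over all 6 libraries (grey), without KO 2 (red) and over WT 1, WT 2, KO 1 and KO 3 (blue), filled where the adjusted p was under 0.05. No gene is filled over 6 libraries, and the estimates for Uhrf1 and Ezh2 move from -1.91 and -1.66 to -4.79 and -3.38 when KO 2 is left out.

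Levels can be compared between genes only per length, for which the deposited FPKM values were used. In the WT libraries Dnmt1 was highest at 48.7 ± 8.97 FPKM, followed by Ezh2 (42.7 ± 11.5), Uhrf1 (35.3 ± 11.6) and Suz12 (30.0 ± 5.46), all as mean and SD with n = 3. Neighbours among these 4 differed by less than their SDs. Dnmt3a (15.8 ± 1.11), Ezh1 (11.9 ± 1.36), Tet3 (10.6 ± 1.36) and Tet2 (9.76 ± 1.02) formed the middle of the order, and Tet1 (2.02 ± 0.238) and Dnmt3b (1.91 ± 0.34) its end. The steps from Suz12 to Dnmt3a, from Dnmt3a to Ezh1 and from Tet2 to Tet1 were wider than the SDs, and the remaining ones were not. In KO 2 the order was the same as that of the WT means. In KO 1 the order began with Dnmt3a at 16.9 FPKM, Ezh1 at 15.7 and Dnmt1 at 12.5, and in KO 3 with Ezh1 at 17.7, Dnmt3a at 13.9 and Dnmt1 at 13.4. Ezh2 was 7th of the 10 in both KO 1 and KO 3, and Uhrf1 was 8th in KO 1 and 9th in KO 3.

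Ratios between related genes within a library do not depend on how the library is scaled. In FPKM, Ezh2 exceeded Ezh1 by 2.2, 4.72 and 4.15 times in WT 1, WT 2 and WT 3 and by 2.67 times in KO 2, whereas the ratio of Ezh2 to Ezh1 was 0.305 in KO 1 and 0.116 in KO 3. Ezh1 was thus the more abundant catalytic transcript in KO 1 and KO 3 only. Likewise, the FPKM ratio of Dnmt1 to Dnmt3a was 2.89, 3.67 and 2.71 in the WT libraries and 2.23 in KO 2, but 0.736 in KO 1 and 0.966 in KO 3. The FPKM ratio of Uhrf1 to Dnmt1 was 0.525 to 0.89 in WT and 0.634 in KO 2, and 0.139 and 0.031 in KO 1 and KO 3, so that Uhrf1 stood further below its WT level there than Dnmt1 did.

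Tests of 5 such ratios were made on log2 CPM with a two-sided exact permutation test over the 6 libraries, whose smallest possible p is 0.1. This lies above the threshold of 0.05, so no ratio could pass, and these p-values do not show the absence of a difference. Dnmt1 over Dnmt3a differed by -1.39 (KO minus WT) and Dnmt3b over Dnmt3a by -1.80, both without overlap of the groups and with exact p = 0.1, adjusted over the 5 to 0.25. Ezh2 over Ezh1 differed by -2.93 and Uhrf1 over Uhrf2 by -3.40, with exact p = 0.2 each, adjusted to 0.25, since KO 2 lay among the WT libraries. Tet1 over Tet3 differed by 0.17 (exact p = 0.4). Without KO 2 the differences were -1.86, -2.33, -4.20, -4.92 and 0.06 in the same order, in a design of 3 against 2 where no ratio can reach the threshold either.

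**Figure D3:**
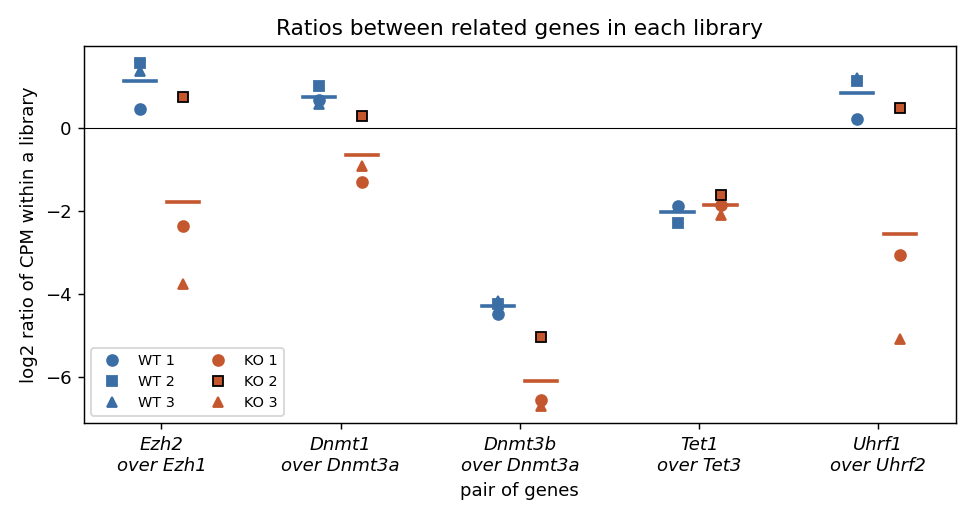
Log2 ratio of CPM of each pair of genes in the 3 WT (blue) and 3 KO (red) libraries, with horizontal bars at the group means and KO 2 outlined in black. The ratio of Ezh2 to Ezh1 is 0.47 to 1.57 in WT, 0.75 in KO 2, and -2.37 and -3.75 in KO 1 and KO 3, and that of Tet1 to Tet3 lies between -2.29 and -1.62 in all libraries.

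Genes with the most similar profile were sought among 11584 genes with a mean of at least 10 CPM, by the root mean square difference of the centred log2 CPM over the 6 libraries, as a description. For Uhrf1 they were Kntc1 (0.0805), Ttk (0.0959) and Troap (0.0968), where Kntc1 and Ttk act in the spindle checkpoint, against a spread of Uhrf1 itself of 2.4. For Ezh2 (own spread 1.64) they were Ly75 (0.0188), Chek2 (0.0615), a checkpoint kinase, and Gins1 (0.0847), a subunit of the replicative helicase. For Dnmt3a (own spread 0.133) they were Dot1l (0.0289), the methyltransferase of lysine 79 of histone H3, Ndufs6 (0.0387) and Agap1 (0.0392). For Ezh1 (own spread 0.377) they were Mrpl48 (0.0287), Ube2o (0.0294) and Vps53 (0.0315).

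The other genes of these pathways were read from lists, with log2 fold changes and calls from edgeR over WT 1, WT 2, KO 1 and KO 3. Over all 6 libraries 0 genes of every list were called, as for all genes. The counts over the 4 stand beside 13.9% of all tested genes called lower and 2.87% called higher. Of 11 other PRC2 subunits, 3 fell and 1 rose, with a median of -0.50 beside -0.03 for all genes. Phf19, a Polycomb-like protein that recruits PRC2, fell by 2.98 on the log2 scale (adjusted p = 0.0392, edgeR), and the core subunit Eed by 1.13 (adjusted p = 0.0424, edgeR). Epop, an elongin-binding accessory subunit listed as E130012A19Rik, rose by 1.47 (adjusted p = 0.0421, edgeR), and the other Polycomb-like gene Phf1 was at 0.63 (adjusted p = 0.0881, edgeR). Of 21 subunits of PRC1, the complex that ubiquitylates histone H2A, 4 fell and 1 rose (median -0.19), shares near those of all genes. Among its chromobox readers, Cbx2 fell by 2.78 (adjusted p = 0.0348, edgeR) while Cbx6 rose by 1.34 (adjusted p = 0.0468, edgeR). Scml2 fell by 2.63 (adjusted p = 0.0343, edgeR), and Scmh1 was at 0.93 (adjusted p = 0.0519, edgeR). Of 6 erasers of the Polycomb marks and their cofactors, Kdm6b, a demethylase of lysine 27, fell by 1.12 and Asxl3 rose by 1.73, with Asxl2 at -0.45 and Bap1 at 0.32 not called.

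On the DNA methylation side, 5 of 10 partners of the methyltransferases fell and 0 rose (median -1.32). They included the replication clamp Pcna, the remodeler Hells, and Cdca7 and Cdca7l, of which Cdca7 activates Hells. Cdca7 fell by 3.44 and Cdca7l by 3.20 (adjusted p = 0.0343 each, edgeR), whereas Usp7, which stabilises Dnmt1, was at 0.49 (adjusted p = 0.138, edgeR) and Trdmt1, an RNA methyltransferase, at 0.23. Of 10 readers of methylated CpG, 0 were called over the 4 libraries and 2 fell and 4 rose without KO 2, where 28.3% of all genes were called lower and 24.5% higher. Their estimates over the 4 ran from -1.0 for Mbd4, a glycosylase, and -0.42 for Zbtb33 to 0.80 for Mbd5 and 1.28 for Zbtb4. Of 10 genes of base excision after demethylation, 4 fell and 0 rose (median -0.66). The glycosylase Neil3 had 153, 227 and 278 reads in WT and 16, 206 and 3 reads in KO 1, KO 2 and KO 3, the deaminase Apobec1 fell by 2.58, and Gadd45b (0.45) and Neil2 (1.15) were not called. Of 9 genes that supply S-adenosylmethionine or 2-oxoglutarate, 3 fell (median -0.74), among them Idh2 by 1.41, and Idh3a (0.40) and Mat2b (0.76) were not called. Of 13 other histone methyltransferases 2 fell (median 0.03), about the 13.9% of all genes, namely Suv39h1 (-1.01) and Setdb1, which methylate lysine 9 of histone H3, while Suv39h2 (-1.06), Nsd3, listed as Whsc1l1 (0.30), and Nsd1 (0.73) were not called.

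Markers of cell division and cell type were read beside the 10 genes. Of 20 S phase genes, 19 fell over the 4 libraries (median -3.32). Their summed level was 1109, 2043 and 1873 CPM in WT 1 to WT 3, compared with 204.8, 1190 and 142 CPM in KO 1 to KO 3, which puts the 6 libraries in the same order as the level of Uhrf1 does. The replication licensing factor Cdc6 fell by 4.71, the ribonucleotide reductase subunit Rrm2 by 4.50 and the helicase subunit Mcm4 by 2.23, and Fen1 was at -1.37 (adjusted p = 0.0545, edgeR). The proliferation marker Mki67 had 320, 477.4 and 504.3 CPM in WT and 32, 345.8 and 4.17 CPM in KO 1, KO 2 and KO 3. Of 10 genes of dividing cells 9 fell. Of 8 glioma progenitor genes 7 fell. Their sum ran from 1468 to 1912 CPM in WT and was 557.3, 1857 and 371.2 CPM in KO 1, KO 2 and KO 3. KO 2 lay above the WT range for 4 of the 8 genes, within it for 3 and below it for 1. Of the 8 genes, Olig2 had 57.4 and 30.5 CPM in KO 1 and KO 3 with WT libraries at 231.2 to 314.2 CPM. Sox2 had 80 and 59.6 CPM in KO 1 and KO 3 with WT libraries at 141.9 to 171.5 CPM. All 12 neuronal genes had higher estimates, 0 called over the 4 libraries and 11 without KO 2, and their defining gene Rbfox3 was at 48.8 to 143.2 CPM in WT and at 365.2, 134.3 and 364.8 CPM in KO 1, KO 2 and KO 3. The sums of 8 oligodendrocyte genes were 1340 to 3397 CPM in WT and 3242 to 7569 CPM in KO, with 0 called. Those of 7 astrocyte genes were 3188 to 4200 and 4574 to 6633 CPM, with 2 lower and 5 higher estimates and 1 called in each direction. Slc1a2 alone had 552.5 to 1376.4 CPM in WT and 1937.1 to 4143.5 CPM in KO, and was not called. Gfap was called lower, with 1092.3 to 1143 CPM in WT and 247.3, 822.8 and 223.9 CPM in KO 1, KO 2 and KO 3. Gja1 was called higher, at 1.42 on the log2 scale. Of 10 microglia and macrophage genes 5 fell, with sums of 860.9 to 900.9 CPM in WT and 552.2, 1207 and 504.9 CPM in KO 1, KO 2 and KO 3. KO 2 lay above the WT range for 7 of these 10 genes, within it for 2 and below it for 1. Of 8 endothelial genes 0 were called, with sums of 156.6 to 202.5 CPM in WT and 158.8 to 217 CPM in KO. Of 5 T cell genes 4 fell, with sums of 22 to 27 CPM in WT and 25.7, 34.5 and 4.89 CPM in KO 1, KO 2 and KO 3. The sum of KO 1 was thus within the WT range, and KO 2 lay above that range for 4 of these 5 genes. Top2a (3.07 to 931.5 CPM), Snap25 (257.4 to 3132.3 CPM), Mog (14.3 to 72.7 CPM), Mag (51.1 to 244.9 CPM), Aqp4 (81.8 to 171.7 CPM), Aldh1l1 (46.4 to 86.6 CPM), Cx3cr1 (59.6 to 107.4 CPM), Csf1r (136.1 to 196 CPM), Pecam1 (16.7 to 29.3 CPM), Cdh5 (13.5 to 16.2 CPM), Cd3e (0.208 to 4.72 CPM) and Cd3d (0.104 to 3.78 CPM) are the other defining genes. No marker of these lists was at 0 in any library, and what part these shifts had in the values of the 10 genes was not tested.

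**Figure D4:**
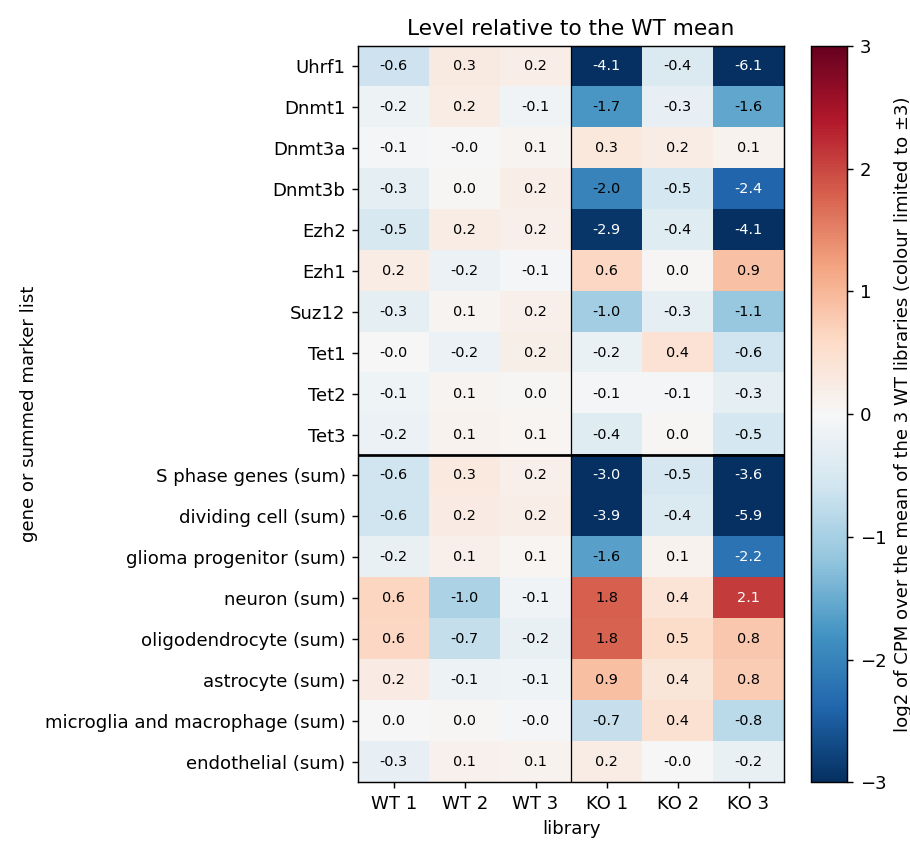
Log2 of the CPM in each library over the mean of the 3 WT libraries, for the 10 genes (above the line) and the summed CPM of marker lists (below it), with red for higher and blue for lower. Blue marks KO 1 and KO 3 for Uhrf1, Ezh2, S phase genes, dividing cells and glioma progenitors and red for neurons, and KO 2 is pale for most of them.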

How the data were processed

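The authors aligned the reads and counted them on genes, and the deposited table holds these raw counts for 16729 genes in 6 libraries, beside FPKM that the authors computed per gene and library. The labels name mm10, the NEBNext kit, CASAVA 1.8.2 and edgeR, whereas the study's methods name a human build, another kit and HTSeq, and its reporting summary names STAR. The deposited table's 9 columns of normalized counts and log ratios per library were not used, nor were the authors' own fold changes, p-values and false discovery rates. Genes passing filterByExpr (a minimum count of 10 and a minimum total of 15) were scaled by TMM and fitted by quasi-likelihood in edgeR 4.0.16 (R 4.3.3). P-values were adjusted by Benjamini and Hochberg's method over every gene in the fit, and a gene was called at an adjusted p under 0.05. Fold changes are of KO over WT on the log2 scale, with a standard error equal to their size divided by the square root of F. CPM used TMM factors over 6 libraries. Log2 ratios used a prior count of 2, tested by exact permutation (scipy 1.17.1, Python 3.11.15). Alternatives were RLE and upper quartile scaling, other filters, DESeq2 1.42.0, edgeR's exact test, limma-voom (limma 3.58.1), each library left out in turn and the replicate number as a block. The fits were tested on simulated data.

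The genes and lists were chosen with earlier results of these data known. Named were all 10 genes, Esm1 and Uhrf2, the 2 lowest and 2 highest genes of each pathway list by fold change over 4 libraries, the defining genes of cell type lists, and the 3 nearest profiles of 4 genes. Other genes of the lists that are named (Pcna, Hells, Setdb1, Brdt, Gata6, Nkx2-2, Gfap, Gja1, Slc1a2) were chosen after their values were seen. Some items that the rule names are not reported here. Gene positions came from GENCODE vM21 on GRCm38 and promoters from RefSeq, and list symbols were matched to the table's older ones for Epop, Nsd2 and Nsd3. Replicates of a group differed beyond sampling noise. Each library is taken as 1 tumor, and the edgeR p-values set the difference between groups against the spread between these samples, estimated with information shared across genes. Depth was 17632070 to 22241832 counts per library, and precision per read covers counting error only.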

Additional observations from a re-analysis of the deposited data

How the results depend on the processing

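Over all 6 libraries the number of the 10 genes called stayed at 0 under RLE and upper quartile scaling, no filter, a mean count of at least 10, edgeR's exact test and limma-voom, and under DESeq2 for the genes other than Uhrf1, to which it gave no adjusted p. Leaving out 1 library gave 0 to 7, with 7 only without KO 2. Over WT 1, WT 2, KO 1 and KO 3 it was 5 to 6 under those alternatives and 2 to 7 with 1 library left out, the 2 being Uhrf1 and Ezh2 without KO 1 or without KO 3. All estimates kept their direction except that of Tet1 over 6 libraries, which was 0.04 without WT 3 and 0.13 without KO 3 and ran from -0.38 to 0.13 with 1 library left out. Lower and higher calls over all genes depended more on the setting: over 6 libraries they were 0 and 0, but DESeq2 gave 425 and 757, the exact test of edgeR 39 and 66, and the fit without KO 2 4608 and 3986. Over the 4 they were 2244 and 464, but 3160 and 2679 with DESeq2, 3577 and 2592 with the exact test, 926 and 83 without KO 1, 252 and 0 without KO 3, 4508 and 4240 without WT 1, and 2042 and 1134 without WT 2. The cause was not tested.

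The replicate numbers of the labels were also fitted as a replicate block over 6 libraries, which called 0 of the 10 genes and gave -3.39 for Uhrf1, -2.41 for Ezh2 and -1.19 for Dnmt1. Deviations of same-numbered libraries from their group means correlated at 0.549, 0.594 and -0.21 across 16166 genes. Those of differently numbered libraries ran from -0.642 (WT 1 and KO 2) to 0.541 (WT 1 and KO 3). The labels give same-numbered libraries nothing in common but the number, and whether it stands for a shared batch was not tested. No paired analysis was possible over the 4 libraries because they share 1 number. With 2 or 3 libraries per group, Dnmt3b, at 27 to 169 reads, rests on the fewest reads of the 10 genes.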

Other observations

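Genes that these enzymes are known to silence were read from lists as well, with calls from edgeR over WT 1, WT 2, KO 1 and KO 3. Of 13 germline genes held silent by DNA methylation in somatic cells, 7 were in the table, of which 2 rose and 1 fell, beside 2.87% of all genes called higher and 13.9% called lower. Brdt, a testis bromodomain gene, had 10.2, 8.73 and 10.3 CPM in the WT libraries, and 19.9, 12.5 and 19.3 CPM in KO 1, KO 2 and KO 3, a rise of 1.04 on the log2 scale (adjusted p = 0.0447, edgeR). Taf7l, a testis transcription factor subunit, had 6 reads in every WT library and 36, 13 and 30 reads in KO 1, KO 2 and KO 3. Both genes, and 3 of the 7 in all, were above WT in all 3 KO libraries, which was the case for 13.2% of all genes tested. Dazl had 61, 18 and 15 reads in WT and 140, 35 and 111 in KO and was not called (1.83, adjusted p = 0.078, edgeR), nor was Ddx4 (0.40). Sycp1, of the synaptonemal complex, moved the other way, with 16, 28 and 22 reads in WT and 1, 37 and 1 reads in KO 1, KO 2 and KO 3. Without KO 2, 5 of the 7 rose and 1 fell, beside 24.5% and 28.3% of all genes.

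Of 15 classical PRC2 target genes 9 were in the table, and 3 of them fell (Gata6, Hoxa9 and Nkx2-2) and 1 rose, set against the same 4-library shares of all genes. Hoxa9 had 116, 281 and 213 reads in WT 1, WT 2 and WT 3, and 10, 87 and 0 reads in KO 1, KO 2 and KO 3. Cdkn2a, the p16 and p19 tumor suppressor locus, had 1147, 1664 and 1830 reads in WT and 86, 1508 and 3 reads in KO, and was not called over the 4 libraries (adjusted p = 0.0518, edgeR). The forebrain factor Lhx2 rose by 1.66 (adjusted p = 0.0459, edgeR), with 13 to 27.4 CPM in WT and 36.6 to 65.2 CPM in KO. DNA methylation and histone marks were not measured in these libraries.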
